A study of Danio rerio with 1109 samples.

Results

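Hox genes encode homeodomain transcription factors, and the deposited counts cover 48 of them among 32057 zebrafish genes. They were taken as every gene row whose symbol begins with hox, a cluster letter from a to d and a number. For 23 members the symbol came from the tables that accompany the series. Another 21 carried a capital name, and each took the only zebrafish RefSeq symbol of that name not already in use. No identifier was matched to RefSeq. The last 4 carry only a capital name that fits 2 zebrafish genes each: HOXB5 (ENSDARG00000013057 and ENSDARG00000054030) and HOXC13 (ENSDARG00000070353 and ENSDARG00000113877). Which of those is the a copy and which the b copy was not settled, so they are called by their identifiers. hoxa4a was not analysed here.

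The cells came from trunks of embryos 48 hours after fertilisation, pooled over many embryos, loosened by a partial trypsin digest and sorted singly into plates. Such a digest yields cells near the surface more readily than deep ones, so the shares of cell kinds are not those of the embryo. A plate of the reporter line `pdgfra:mCit` held about 370 cells. The other 2 plates held about 370 cells (vegfc plate 1) and 380 cells (vegfc plate 2) of `vegfc:Gal4FF;UASGFP; kdrl:mCherry`, in which Gal4 driven from vegfc switches on GFP and mCherry marks kdrl cells; the sorted populations within these plates cannot be told apart here. No group carried a mutation or a treatment. A plate is 1 sample and its cells are not replicates, so no p-value is given; intervals in the text are exact Clopper-Pearson 95% intervals and cover counting error only. The line cannot be told apart from its plate. Cell numbers given with "about" are to the nearest 10.

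Full-length cDNA of each cell was sequenced, and each cell had between 50045 and 782140 gene counts, with plate medians of 279923 to 315212. No 2 cells had identical counts. A gene was called present in a cell at 20 counts or more. Kinds of cell were set by marker genes at the same 20 counts, which gave about 340 cells with and1 and and2, 67 neural cells, 38 visceral mesenchyme cells, 44 myogenic cells, 28 epithelial, 18 endothelial, 110 myeloid cells and about 300 fibroblasts; about 140 cells met several gates and 24 met none. The markers and labels did not always sit well together. The and1 and and2 gate took 83.3% of the cells of the pdgfra plate, and lyz, a lysozyme gene of myeloid cells, reached 20 counts in 415 cells. Gates were therefore also raised, after the counts had been seen, so that a marker had to reach 10% of its 99th percentile as well. The raised gates gave 70 cells with and1 and and2, 76 neural, 44 visceral, 52 myogenic, 46 epithelial, 19 endothelial and 85 myeloid cells and 583 fibroblasts, of which about 260 were on the pdgfra plate. Levels are given for gates at 20 counts unless raised gates are named, and a named gene whose call turns on this choice is marked as such.

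Hox genes lie in clusters in the order in which they are used along the body. Genes at the low-numbered end are switched on early and from the hindbrain backward, and genes of higher paralog groups start later and further toward the tail, so that the set of Hox genes a cell uses reflects its place along the body. Vertebrates share the clusters A to D. Teleosts duplicated their genome and later lost some copies, which leaves the members here on hoxaa, hoxab, hoxba, hoxbb, hoxca, hoxcb and hoxda. In mouse and fish, the group 13 genes act at the far end of the axis and of the outgrowths: tail bud, limb bud or fin tip, hindgut and cloaca.

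All 48 members reached 20 counts in at least 1 cell, and 983 cells had at least 1 of them while about 130 had none. A member was in at least 5% of cells for 34 genes, in at least 25% for 12 and in under 5% for 14. The most widely found was hoxc3a, with 496 cells (44.7%, interval 41.8 to 47.7). After it came hoxa9b with 466 cells (interval 39.1 to 45%), hoxa10b in 33.6% of cells, hoxc10a in 33% and hoxd9a in 32.3%, and the intervals of these last 3 overlap. At the other end hoxa1a was in 2 cells and hoxb1a in 3. These shares are not corrected for transcript length, and they describe how often a gene was found, not its level against other genes.

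Along the paralog groups, the shares were uneven. The 4 genes of group 3 were in 16.3% (hoxd3a) to 44.7% (hoxc3a) of all cells and the 5 genes of group 9 in 25.8% (hoxa9a) to 42% (hoxa9b), while the 11 genes of groups 4 to 6 lay between 1.89% and 7.03%. Groups 7 and 8 lay between, with hoxb7a in 14.8%, hoxb8a in 14.7%, hoxb8b in 13.4% and hoxc8a in 10.6% of cells. Of the 11 genes of groups 4 to 6, 8 lie within the span of a group 1 or 3 gene of their cluster in the RefSeq annotation (hoxa5a in hoxa3a, hoxb4a and hoxb6a in hoxb3a, hoxb6b in hoxb1b, hoxc4a, hoxc5a and hoxc6a in hoxc3a, hoxd4a in hoxd3a), and so do hoxc8a and hoxc9a in hoxc3a. That annotation is of another assembly than the one used for counting, so the overlaps may differ there. The counting is not stated to use strand, and reads in such overlaps can be left out or counted for either gene. The part of these overlaps in the low shares of groups 4 to 6 was not tested.

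**Figure D1:**
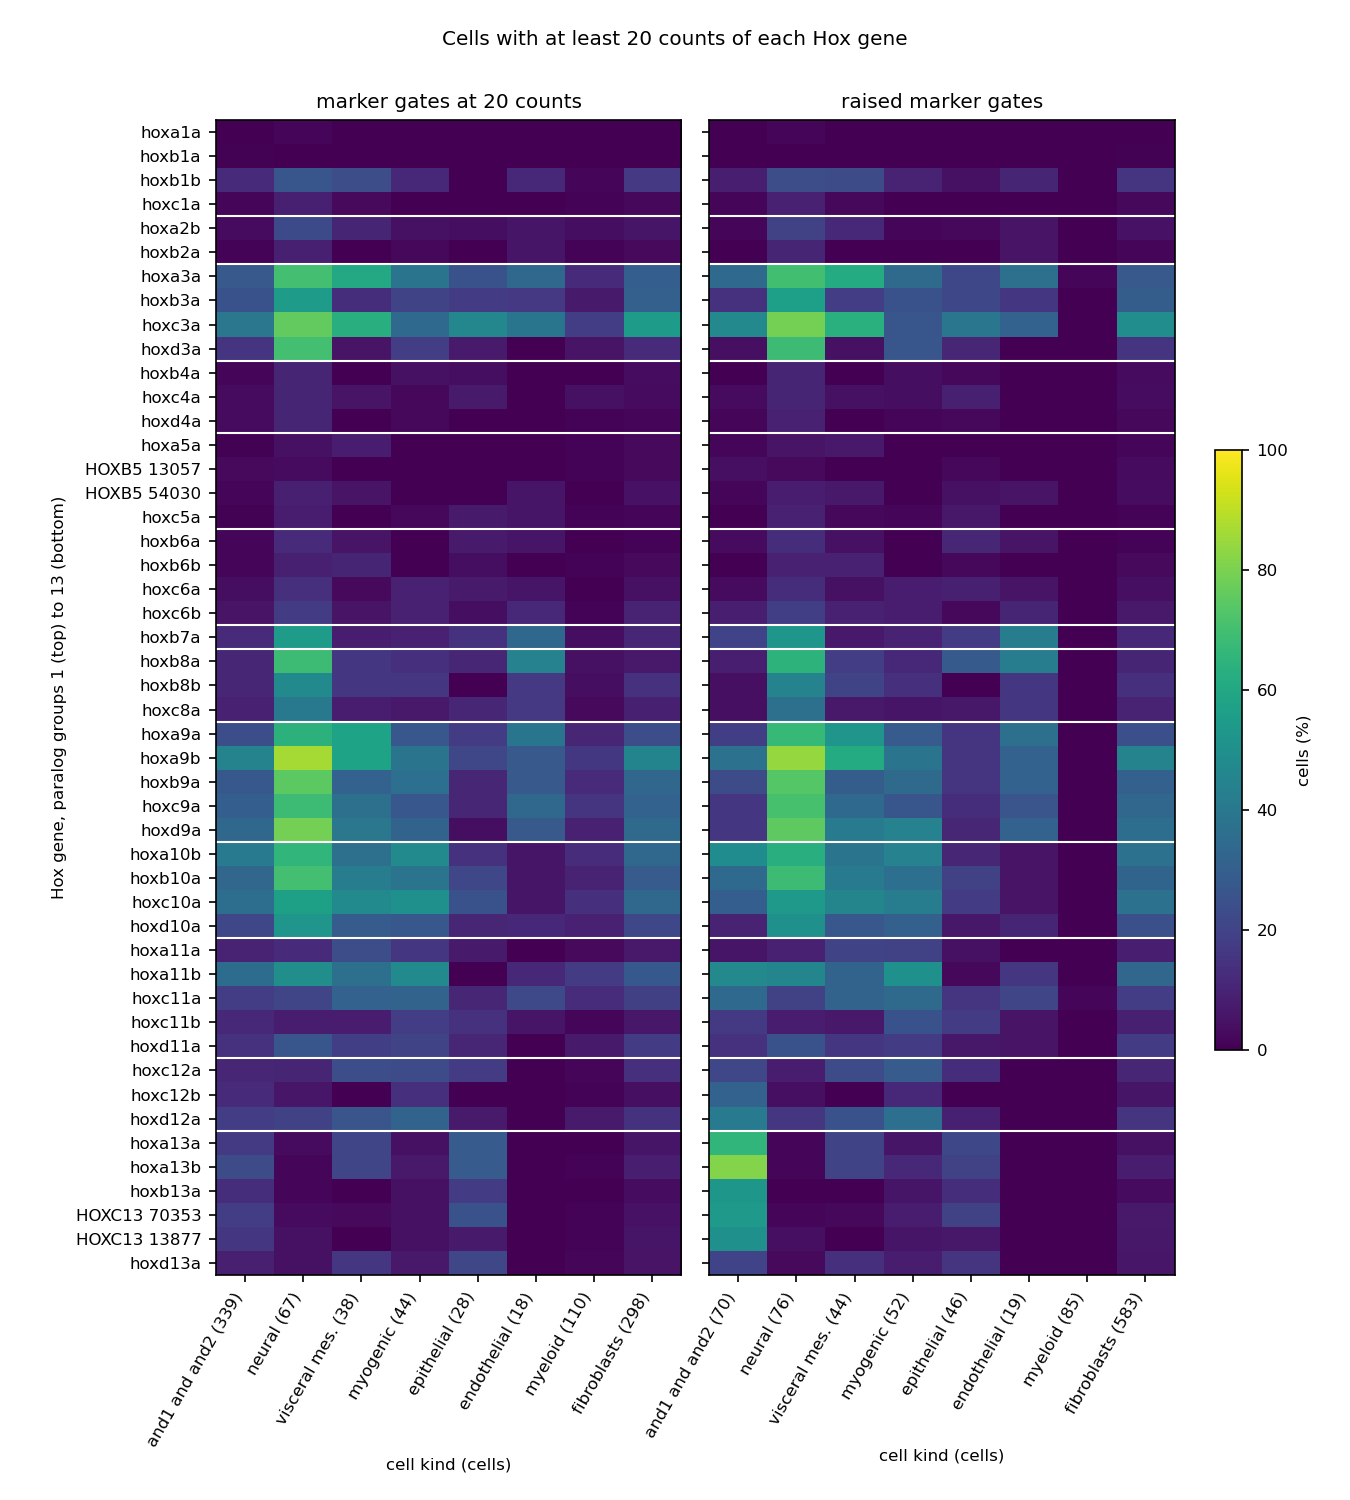
Share of cells with at least 20 counts (colour, percent) for each of the 48 Hox genes (rows, paralog groups 1 to 13 from top to bottom, split by white lines) in each kind of cell (columns, with cell numbers), for gates at 20 counts on the left and raised gates on the right. Neural cells are bright in groups 3 and 7 to 10, and cells with and1 and and2 in group 13 once gates are raised (81.4% for hoxa13b). Myeloid cells are dark throughout with raised gates. With gates at 20 counts, 60% of the myeloid cells had no Hox gene.

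Copies that the genome duplication left were unequal in how often they shared a cell. hoxa13a and hoxa13b were found together in 84 cells, which is 52.8% of the cells that had either (interval 44.8 to 60.8), and the 2 HOXC13 genes together in 67 (57.8%, interval 48.2 to 66.9). All other pairs were lower on this measure, which unequal rates of the 2 copies hold down. hoxa9a and hoxa9b shared 170 of 582 cells (29.2%), hoxc12a and hoxc12b 26.3%, hoxb8a and hoxb8b 21.4%, hoxc11a and hoxc11b 20% and hoxa11a and hoxa11b 13.9%. Pairs with a rarely found copy shared the least: 5.36% for hoxb6a and hoxb6b, 4.03% for hoxc6a and hoxc6b, 3.33% for the HOXB5 genes and 0.719% for hoxb1a and hoxb1b. In the hoxa11 pair the copies were also found at different rates, with hoxa11b in 29.7% of all cells and hoxa11a in 7.94%. Of cells with the rarer copy, the other was in 59.4% for hoxa9, 58.6% for hoxc12 and 58% for hoxa11. Over all cells that other copy was in 42%, 11.5% and 29.7%. It was in 51% for hoxc11 (18.6% of all cells), 36.9% for hoxb8 (14.7%) and 33.3% or less for hoxb1, hoxb6, hoxc6 and HOXB5. The hoxb1 share rests on 3 cells, and that of hoxc6, 9.8%, was near the 7.03% of all cells. For hoxa13 it was in 81.6% (12.6% of all cells) and for HOXC13 in 78.8% (8.84%). Near-identical stretches of 2 copies could place reads on either, which was not tested.

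The most posterior group of a cell was taken as the highest paralog group with a member at 20 counts. Over all cells it was group 13 in 19.2% (interval 16.9 to 21.7), and one of groups 10 to 13 in 814 cells (73.4%, interval 70.7 to 76). By plate, groups 10 to 13 were the most posterior in 80% of pdgfra plate cells, in 66.5% of vegfc plate 1 cells and in 73.7% of vegfc plate 2 cells. Group 13 was reached by 27.7% of cells of the pdgfra plate (interval 23.1 to 32.6), by 57 of vegfc plate 1 (15.5%) and by 55 of vegfc plate 2 (14.6%). Most cells with a Hox gene thus carried one of groups 10 to 13, and the pdgfra plate had the highest share with group 13.

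Cells with group 13 usually carried other frequent groups as well, near or far. Of these cells, 75.1% had a gene of group 10, 73.2% one of group 11 and 73.7% one of group 12. Over all cells these shares were 63.8%, 44.7% and 22.7%. Group 3 was in 73.7% of cells with group 13, against 67.6% of all cells, and group 9 in 72.3%, against 71.15%. Of the cells with group 13, 7 had none of groups 9 to 12 (3.29%, interval 1.33 to 6.65). Group 12 was the group most often added: 73.7% of these cells had it against 22.7% of all cells. Group 8 went the other way, at 15.5% of cells with group 13 (interval 10.9 to 21.1) against 28.3% of all cells. Within the raised and1 and and2 gate, 4 of the 62 cells with group 13 had a group 8 gene. Since all genes are called in the same cells, deep cells add to every pair, and these shares are a description.

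By kind, the most posterior group was not spread alike. Groups 10 to 13 were reached in 66 of 67 neural cells (98.5%, interval 92 to 100%), 42 of 44 myogenic cells (95.5%, interval 84.5 to 99.4), 36 of 38 visceral mesenchyme cells (94.7%, interval 82.2 to 99.4) and 240 fibroblasts (80.5%, interval 75.6 to 84.9). Group 13 itself showed another order, with 6 of 67 neural cells (8.96%, interval 3.36 to 18.5), 6 of 44 myogenic cells (13.6%), 13 of 38 visceral cells (34.2%, interval 19.6 to 51.4) and 40 fibroblasts (13.4%, interval 9.77 to 17.8). Of the 44 myogenic cells, 1 was on the pdgfra plate. With raised gates that plate held 10 myogenic cells, and 70% of them reached groups 10 to 13, against 81.5% of its fibroblasts. A gene of group 10 was in 65 of the 67 neural cells (97%, interval 89.6 to 99.6) and one of group 11 in 39 (58.2%); the neural and fibroblast intervals for group 13 overlap. Endothelial cells had none at group 12 or 13, 0 of 18 for gates at 20 counts (upper limit 18.5%) and 0 of 19 for raised gates (upper limit 17.6%); with raised gates the myeloid cells had none either.

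**Figure D2:**
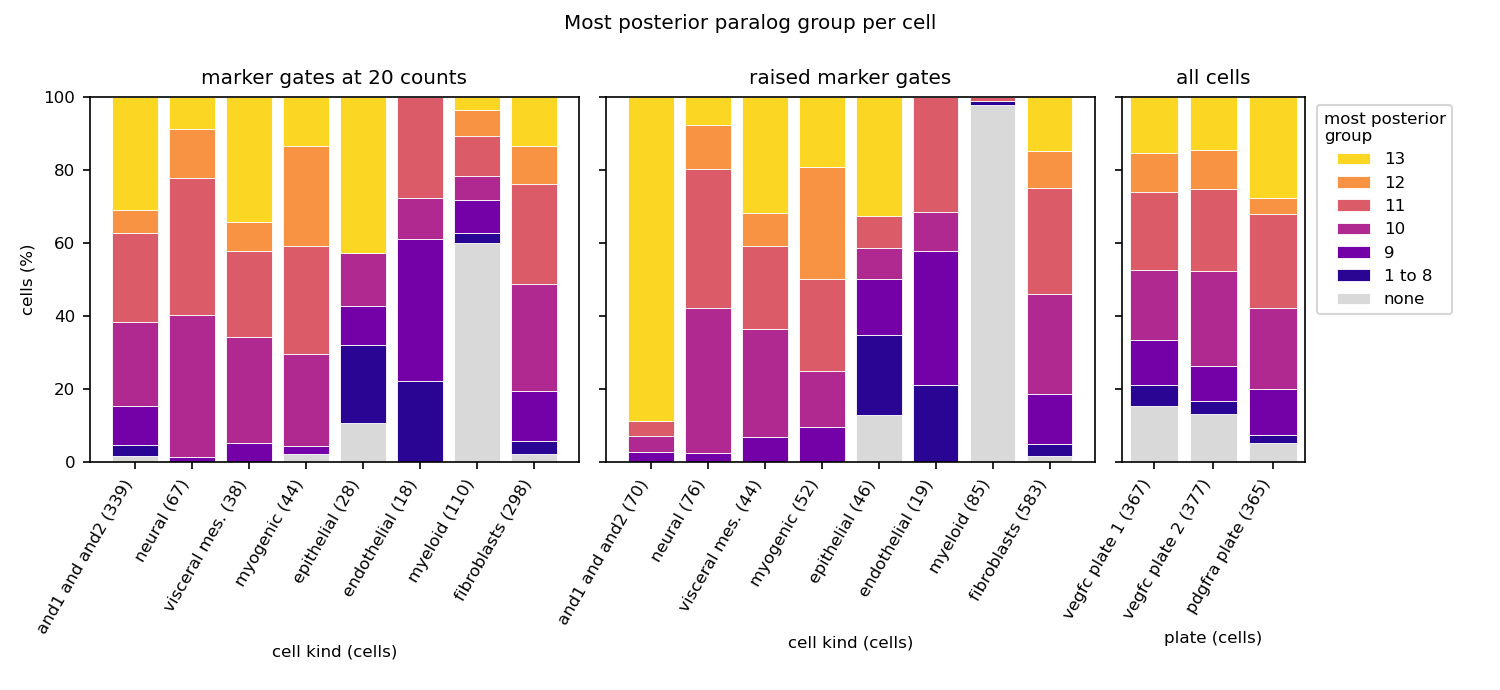
Share of cells (percent) by the highest paralog group found in the cell, for gates at 20 counts (left), raised gates (middle) and each plate (right), with cell numbers in brackets and cells with no Hox gene in grey. The group 13 part of the and1 and and2 column is 31% with gates at 20 counts and 88.6% with raised gates, and grey fills 97.6% of the raised myeloid column.

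The number of Hox genes per cell set myeloid and neural cells at the ends. Neural cells had a median of 13.5 Hox genes with raised gates (range 4 to 29), cells with and1 and and2 had 9.5, visceral cells 8, myogenic cells 7, endothelial cells 5, epithelial cells 4 and fibroblasts 6. Myeloid cells, which belong to the blood lineage, had a median of 0, and 83 of the 85 had no Hox gene at 20 counts (97.6%, interval 91.8 to 99.7). Their median depth was 373012 counts against 273545 in fibroblasts. When every cell was thinned to 50000 counts and a gene called at 2, the medians were 14 in neural cells, 10 in cells with and1 and and2, 0 in myeloid cells and 7 in fibroblasts. The myeloid gate at 20 counts still held cells with Hox genes, 44 of 110. Groups 10 to 13 were reached in 41.4% of its cells on vegfc plate 1 and in 5% of those on vegfc plate 2, and the medians of lyz over these plates were 41 and 8 counts; the part of that difference was not tested. Of the 85 raised-gate cells, 1 had hoxa3a and 1 had hoxc11a, and no other member reached 20 counts in any. After the thinning, groups 10 to 13 were reached in 9.41% of them.

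**Figure D3:**
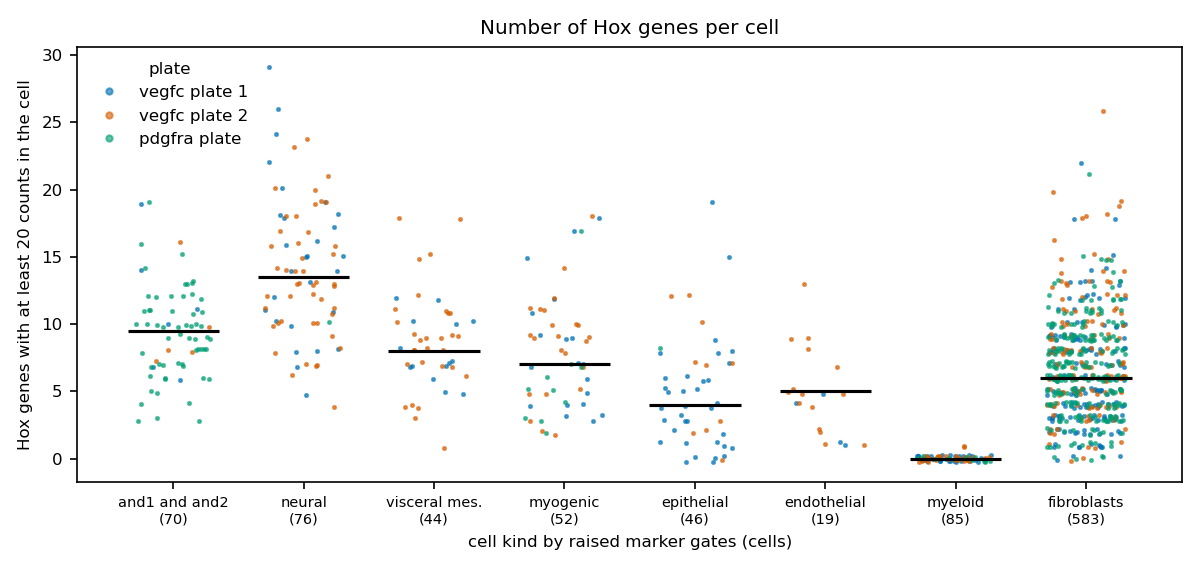
Number of Hox genes with at least 20 counts in each cell (points, coloured by plate, with small random offsets) by kind under raised gates; black lines are medians. Neural cells have the highest median (13.5), and 83 of 85 myeloid cells lie at 0.

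Neural cells, set against fibroblasts, had more of most Hox genes up to group 10. Levels were compared as log2 ratios of (CPM + 5), where CPM are summed counts scaled to a common total and 5 is the pseudocount, and a gene was called when the ratio was at least 1 in size, in the same direction, in the pooled cells and within every plate with 10 or more cells of both kinds. Of the 41 members with a mean of at least 5 CPM, 15 were called higher (36.6%), where 10.1% of all 13260 genes tested were. Called lower were 3 (7.32%), a smaller share than the 14.1% of all genes. The neural cells (20 on vegfc plate 1, 47 on vegfc plate 2, none on the pdgfra plate) came from the vegfc plates. The median ratio of the members was 0.85, against -0.03 for all genes tested. Of the 27 tested genes of groups 1 to 10, 25 were above 0 in both plates, and of the 6 genes of group 13, 5 were below 0 in both.

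The largest difference was in hoxb8a, a gene that in mouse is expressed along the spinal cord. It was at 411.5 CPM in neural cells of vegfc plate 1 and 479.2 CPM in those of vegfc plate 2, against 42.6 CPM and 36 CPM in fibroblasts of the same plates (log2 ratio 3.45). It was in 46 of 67 neural cells (68.7%) and in 20 fibroblasts (6.71%). hoxd3a, a group 3 gene, was at 366.9 CPM and 407.5 CPM in neural cells of plates 1 and 2, against 38.4 CPM and 49.4 CPM in fibroblasts (log2 ratio 2.99). For both genes the summed level was higher in neural cells on both plates, as a call requires, while single cells of the 2 kinds overlapped.

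The anterior and middle genes that followed lay in clusters A, B, C and D. hoxb6a (log2 ratio 2.52), which lies within hoxb3a, was in few neural cells (8 of the 67) and was at 18.9 and 41.8 CPM in them, against 0.348 and 2.94 CPM in fibroblasts. hoxb7a had a log2 ratio of 2.39 and was in 55% and 55.3% of neural cells on plates 1 and 2, against 8.47% and 12.7% of fibroblasts. hoxb8b (1.96), hoxa9b (1.91) and hoxa9a (1.90) were next. hoxa9b was in 58 of 67 neural cells (86.6%), the highest share of any member in the 8 kinds under the 20-count gates, and in 45.3% of fibroblasts. hoxa3a (1.68), hoxd10a (1.66), hoxc8a (1.61), hoxc9a (1.59) and hoxb10a (1.5) were also called, and hoxa2b, hoxd9a and hoxb9a, at 1.25 to 1.48, completed the 15. hoxa2b, of a group known for its part in the hindbrain, was at 63.9 CPM in neural cells of these trunks, against 19.7 CPM in fibroblasts.

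The genes of groups 11 and 12 did not separate: none of the 8 was called, with ratios of 0.01 (hoxc12b) to 0.90 (hoxa11b). Of group 13, hoxa13b (-1.48), hoxa13a (-1.66) and hoxb13a (-1.94) were called lower. With a pseudocount of 20 CPM none of these 3 was called. hoxb13a was in 1 of 67 neural cells and hoxa13a in 2. They were rare in fibroblasts too: with raised gates on vegfc plate 1, hoxb13a was in 2.25% and hoxa13a in 3.37%. The levels of these genes thus rest on few cells. Raised gates gave 16 higher, with hoxb6b (1.73) added, and 2 lower (hoxa13b and hoxb13a), where 10.1% and 13.4% of all genes were.

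**Figure D4:**
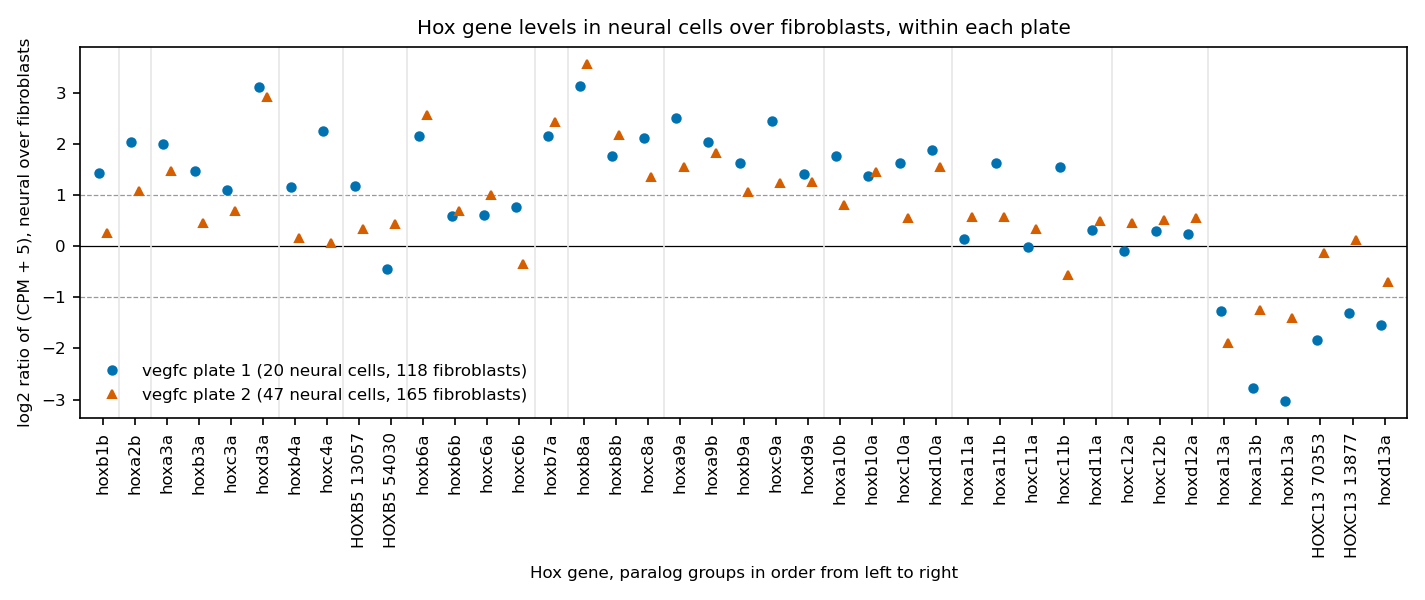
Log2 ratio of (CPM + 5), neural cells over fibroblasts, for each of the 41 members tested, in order of paralog group from left to right; circles are vegfc plate 1, triangles vegfc plate 2, dashed lines mark -1 and 1. Both plates lie above 0 for most genes of groups 1 to 10 and at or below 0 for most of group 13, from hoxb8a (pooled 3.45) to hoxb13a (pooled -1.94).

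Cells with and1 and and2 stood out in group 13 under the raised gates, but not under the gates at 20 counts. Actinodins, the products of and1 and and2, form the actinotrichia, the fibres that stiffen the fin fold. With gates at 20 counts, 31% of such cells had a group 13 gene (interval 26.1 to 36.2). Under the same gates it was 42.9% of epithelial cells (interval 24.5 to 62.8), 34.2% of visceral cells and 13.4% of fibroblasts. With raised gates 62 of 70 had one (88.6%, interval 78.7 to 94.9), against 87 of 583 fibroblasts (14.9%, interval 12.1 to 18.1). Of the 70, 59 were on the pdgfra plate, where 51 had group 13 (86.4%, interval 75 to 94), against 45 fibroblasts of that plate (17.4%). The share with group 13 thus rests on how much and1 and and2 a cell must hold.

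Within the raised gate, the group 13 genes were found at unlike rates. hoxa13b was in 57 of 70 cells (81.4%), hoxa13a in 46 (65.7%), HOXC13 (ENSDARG00000070353) in 38 (54.3%), hoxb13a in 37 (52.9%), HOXC13 (ENSDARG00000113877) in 35 (50%) and hoxd13a in 14 (20%). The fibroblast shares of these 6 genes lay between 3.09% (hoxb13a) and 8.06% (hoxa13b). A cell with group 13 under the raised gate had a median of 4 group 13 genes and 43 of the 62 had 3 or more, against a median of 2, and 34 of 87 with 3 or more, in fibroblasts with group 13. Of the 70, every cell with a B or C cluster gene of group 13 (45) also had one from the A or D clusters (62).

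In levels too, group 13 led. With gates at 20 counts, 2 members were called higher in cells with and1 and and2, hoxa13a (1.66) and hoxb13a (1.42), where 0.792% of all genes tested were called higher, and none lower. hoxa13a was at 129.7 CPM in cells with and1 and and2, against 37.5 CPM in fibroblasts, and was above 1 in all 3 plates (2.18, 3.52 and 1.13 for vegfc plate 1, vegfc plate 2 and the pdgfra plate). With raised gates, where only the pdgfra plate had 10 cells of both kinds, 5 members were called higher, against 4.78% of all genes: hoxa13a (4.17), hoxb13a (3.98), hoxa13b (3.21), HOXC13 (ENSDARG00000113877; 2.39) and HOXC13 (ENSDARG00000070353; 2.36). hoxa13a was at 487.5 CPM there, against 22.4 CPM in fibroblasts, and hoxb13a at 407.9 CPM, against 21.1 CPM. Called lower were 3, hoxa2b (-1.65), hoxd10a (-1.53) and hoxb4a (-1.08), where 8.03% of all genes were. On the pdgfra plate hoxa2b was at 0.944 CPM, against 12.6 CPM in fibroblasts, and hoxb4a at 0.199 CPM, against 5.91 CPM. Neither reached 20 counts in the 59 cells there, against 3.5% and 2.7% of fibroblasts. The ratios of hoxa2b and hoxb4a depend on the pseudocount. hoxd13a, which in the fin and limb acts with hoxa13 genes, was not among the called members (1.25 pooled, 0.29 on the pdgfra plate).

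**Figure D5:**
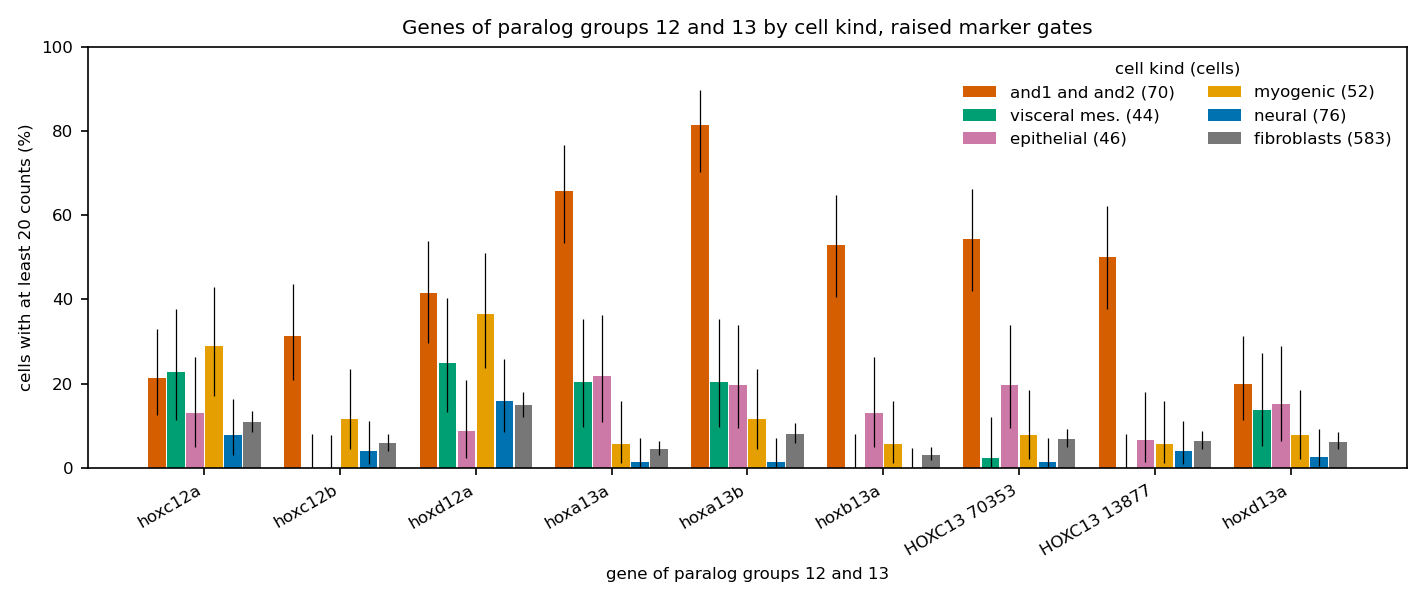
Share of cells with at least 20 counts (percent) for the 3 genes of group 12 and the 6 of group 13 in 6 kinds of cell under raised gates, with cell numbers in the key; lines are exact 95% intervals and cover counting error only. Cells with and1 and and2 exceed fibroblasts in each gene of group 13, from 20% for hoxd13a to 81.4% for hoxa13b.

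Visceral mesenchyme, gated on foxf2a, had group 13 mostly from clusters A and D. Forkhead F genes mark the mesenchyme around the gut. Of the 38 cells, 13 had a group 13 gene of cluster A or D and 1 had one of cluster B or C (interval 0.067 to 13.8%), and with raised gates these were 14 and 1 of 44. In fibroblasts the counts were 38 and 20 of about 300, and in epithelial cells, the other kind with many group 13 cells, 11 and 9 of 28. hoxa13a and hoxa13b were each in 9 of the 44 raised-gate visceral cells (20.5%), hoxd13a in 6 (13.6%), HOXC13 (ENSDARG00000070353) in 1, and hoxb13a and HOXC13 (ENSDARG00000113877) in none (upper limit 8.04%). In mouse, Hoxa13 and Hoxd13 are known to act in the hindgut.

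Among levels, 6 members were called lower in visceral cells than in fibroblasts, where 8.51% of all genes tested were, and none higher. hoxb13a was at 0.873 CPM in visceral cells, against 37.4 CPM in fibroblasts (-2.85). HOXC13 (ENSDARG00000113877) was at 0.470 CPM, against 29.3 CPM (-2.65), and hoxc12b at 0.269 CPM, against 18.5 CPM (-2.16). HOXC13 (ENSDARG00000070353; -1.73), hoxd3a (-1.67) and hoxb9a (-1.01) were the others. A call requires all 6 to be lower in both plates, and some of the fibroblast levels rest on few cells. With raised gates on vegfc plate 1, hoxb13a reached 20 counts in 2.25% of fibroblasts. hoxc12b and HOXC13 (ENSDARG00000113877) did so in 5.06% each. None of these genes did in the 14 visceral cells of that plate (upper limit 23.2%). With raised gates 7 were called lower, where 7.77% of all genes were, with hoxb9a lost and hoxb7a (-1.64) and hoxd11a (-1.03) added. hoxa13a gave 185.1 CPM in visceral cells, against 37.5 CPM in fibroblasts, but the plates disagreed (-0.90 on vegfc plate 1 with 10 visceral cells and 2.64 on vegfc plate 2 with 28), so it was not called. hoxa3a and hoxc3a were frequent, in 60.5% and 63.2% of visceral cells, against 29.9% and 55% of fibroblasts, while hoxb3a was in 13.2% against 30.5%. The low share of hoxb3a was not seen on vegfc plate 1. With raised gates it was there in 6 of 14 visceral cells (42.9%, interval 17.7 to 71.1), against 25.3% of fibroblasts. Over all plates it was then in 8 of 44 visceral cells.

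Myogenic cells, gated on the muscle regulatory genes myod1 or myog, had somewhat lower levels of most anterior and middle members. Of the 27 tested genes of groups 1 to 10, 19 were below 0 in both plates and none above, with a median of -0.65. One member was called lower, where 9.27% of all genes tested were: HOXB5 (ENSDARG00000054030) had no count in the 44 myogenic cells, against 11.4 CPM in fibroblasts. That ratio (-1.71) depends on the pseudocount, and with 20 CPM it was not called. Of the 8 genes of groups 11 and 12, 6 were above 0 in both plates and none was called. hoxd12a was in 14 of 44 myogenic cells (31.8%), against 44 fibroblasts (14.8%), and hoxa11b in 47.7%, against 27.5%. Group 12 was the most posterior group in 12 of 44 myogenic cells (27.3%, interval 15 to 42.8), against 31 fibroblasts (10.4%, interval 7.18 to 14.4).

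Endothelial and epithelial cells were few and are given as shares. In the 19 endothelial cells of the raised gate, hoxb7a and hoxb8a were each in 8 (42.1%, interval 20.3 to 66.5), against 11.1% and 10.3% of fibroblasts. Genes of group 10 were found in few: hoxa10b, hoxb10a and hoxc10a were each in 1 of 19, against 37.4%, 32.1% and 37.6% of fibroblasts, and hoxd10a in 2 of 19 (10.5%), against 24.4%. These cells were mostly on vegfc plate 2 (15 of 19), so the pattern is that of 1 plate. Epithelial cells, gated on genes such as epcam and cdh1, had group 13 in 15 of 46 (32.6%, interval 19.5 to 48.0), and 11 of the 15 had 3 or more genes of the group. They differed between plates, with group 13 in 8 of 35 cells on vegfc plate 1 and 6 of 10 on vegfc plate 2.

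Fibroblasts with en1a or en1b, engrailed homeobox genes that in zebrafish mark part of the somite, had less of the group 13 genes than other fibroblasts under the 20-count gates. A fibroblast was taken to have en1a or en1b at 20 counts of either, and this was not raised with the gates. Of the 41 members, 8 were called lower and none higher, where 9.48% of all genes tested were called lower. They were hoxa13a (-3.17), hoxb13a (-3.10), hoxa13b (-2.91), HOXC13 (ENSDARG00000070353; -2.73), hoxc12b (-2.47), HOXC13 (ENSDARG00000113877; -2.41), hoxb9a (-2.38) and hoxa9a (-1.59). hoxa13a was at 1.41 CPM in the about 110 cells with en1a or en1b, against 52.8 CPM in the about 190 without. With raised gates, which add fibroblasts of the pdgfra plate (about 120 with en1a or en1b, 140 without), 2 stayed called, hoxb9a (-1.78) and hoxb13a (-1.52), where 2.53% of all genes were called lower. The HOXC13 genes were then at 0.09 (ENSDARG00000070353) and 0.68 (ENSDARG00000113877), since on the pdgfra plate they were higher with en1a or en1b (0.91 and 1.65) and on both vegfc plates lower.

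Fibroblasts whose most posterior group was 10 to 13 (240 cells) were set beside those at 9 or less (51 cells). The sets are called posterior and anterior for short, and other genes that differ between them were listed. Membership rests on the count threshold, and at the lowest threshold tried every fibroblast reached groups 10 to 13. The place of these cells along the body was not tested. The members chose these cells, so their own calls (18 higher and 2 lower, with 6.39% and 1.07% of all genes called higher and lower) say nothing further. Of the genes that are no members, 829 were called higher and 140 lower, which is 6.27% and 1.06% of those tested, and with raised gates 1.4% and 0.159% were. The list led with si:dkey-202e22.2 (4.39) and ENSDARG00000096956 (4.09), neither with a known role given here. lbx2, a ladybird homeobox gene, was at 75.2 CPM in posterior fibroblasts, against 1.08 CPM in anterior ones (3.72), and msx2b, a homeobox gene of fin folds and other outgrowths, at 72.1 CPM, against 2.38 CPM (3.38). C25H11orf96, kazald2, hpdb, c1qtnf5, DHRS3 and IRX3 completed the top 10, of which 6 were also called with raised gates, lbx2 and msx2b among them. The lower list led with cyp24a1, a vitamin D hydroxylase, at 1.76 CPM, against 55.1 CPM (-3.15); of its top 10 only pfkfb3, a regulator of glycolysis (-2.23), was also called with raised gates. The anterior group is small (21, 28 and 2 cells on vegfc plate 1, vegfc plate 2 and the pdgfra plate). Its cells were somewhat shallower, with a median of 273494 counts in posterior fibroblasts and 240555 in anterior ones. The comparison was also rerun on cells of at least 200000 counts, and that outcome is not reported here. How much of these calls goes with depth is therefore left unstated.

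Between lines, no call of a member in fibroblasts was kept with raised gates. With gates at 20 counts, 7 members were called higher in fibroblasts of the vegfc plates and 3 lower, where 25.5% and 7.22% of all genes tested were, but the pdgfra plate then held 15 fibroblasts. With raised gates (about 320 cells of the vegfc plates, 260 of the pdgfra plate) none was called in either direction. Of all genes tested, 4.22% were then called higher and 2.59% lower. The members lay between -0.88 (hoxc12b) and 1.33 (hoxc12a), with 20 of 41 above 0 on both vegfc plates and 3 below.

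Hox proteins bind DNA together with Pbx and Meis homeodomain proteins, and 11 genes of that cofactor list were measured above 5 CPM. In neural cells 3 were called higher and 1 lower, with both gates: meis2a at 859.1 CPM, against 141.1 CPM in fibroblasts (2.56), pbx3b (2.07), meis2b (1.99) and pknox2 (-1.41). Of all genes 10.1% were called higher and 14.1% lower there. In cells with and1 and and2 none was called at 20-count gates, where 0.354% of all genes were called lower. With raised gates 7 were called lower, where 8.03% of all genes were. Only the pdgfra plate then had 10 cells of both kinds. pbx1a led, at 30.1 CPM, against 187.9 CPM in fibroblasts (-2.46). In visceral cells meis2b was called lower (-2.66), where 8.51% of all genes were. With raised gates pknox2 was as well (-2.52), where 7.77% were. In myogenic cells pbx1b (-1.62) and pknox2 (-1.68) were called lower, where 9.27% of all genes were. With raised gates the call of pbx1b was lost and meis3 (-3.19) and pbx3b (-2.71) were added, where 6.78% of all genes were called lower. In fibroblasts with en1a or en1b, pbx1a (2.25) and pbx3b (2.32) were called higher, where 3.02% of all genes were, and meis2a (-1.82) and meis2b (-2.90) lower. With raised gates pbx1a and meis2b kept their calls, and pbx3b (1.91) and meis2a (-1.36) did not, where 1.41% and 2.53% of all genes were called higher and lower.

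The even-skipped genes lie next to group 13 in the RefSeq annotation, with evx1 beside hoxa13a, eve1 beside hoxb13a and evx2 beside hoxd13a. Their kinds of cell were not the same. evx2 (4.03) and evx1 (2.34) were called higher in neural cells, where hoxa13a was called lower at 20-count gates only; evx1 marks a class of spinal interneurons. evx2 was at 80.4 CPM in neural cells, against 0.240 CPM in fibroblasts. eve1 was called lower in neural cells (-1.73) and visceral cells (-1.82) at 20-count gates, as hoxb13a was, and with raised gates it was at -0.16 and -0.25 and was not called. In cells with and1 and and2, eve1 was called higher (1.07 at 20-count gates, 4.67 with raised gates, at 156.4 CPM against 1.34 CPM in fibroblasts), as its neighbour hoxb13a was.

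Among genes that set up the Hox domains, gdf11, the secreted factor that times the move from trunk to tail in mouse, was at 125.4 CPM in neural cells, against 3.03 CPM in fibroblasts (4.02). aldh1a2, which makes retinoic acid, a signal that turns on anterior Hox genes, was called lower in neural cells (-3.31). It was also called lower in myogenic cells (-1.30), but not with raised gates (-0.76). cyp26a1, which breaks retinoic acid down, was called higher in cells with and1 and and2 under raised gates only (2.06; -0.12 at 20-count gates). In fibroblasts with en1a or en1b it was called higher at 20-count gates only (1.59; 1.38 with raised gates), and in visceral cells it was called lower with both gates (-2.80 at 20 counts). Over the 8 genes measured of this list, 3 were called higher and 2 lower in neural cells, and 3 and 1 with raised gates, beside 10.1% and 14.1% of all genes at 20-count gates. At those gates 1 was higher and 2 lower in fibroblasts with en1a or en1b (3.02% and 9.48% of all genes). In myogenic cells none was higher and 3 lower (6.11% and 9.27%). With raised gates 2 were higher and 2 lower in cells with and1 and and2 (4.78% and 8.03%), and 1 and 1 in visceral cells (4.1% and 7.77%). Not all of these called genes are named here. Of the 3 measured limb and tail bud genes, hand2 was at 636.8 CPM in visceral cells, against 71.6 CPM in fibroblasts (3.07), and was called higher with both gates, where 4.43% of all genes were at 20-count gates. It was called lower in fibroblasts with en1a or en1b with both gates (-3.69 at 20 counts). Its calls in neural cells (-2.77) and myogenic cells (-1.40) were lost with raised gates (-0.59 and -1.99). pitx1 was called lower in neural cells (-2.07) and in fibroblasts with en1a or en1b (-2.45) with both gates, and in myogenic cells with raised gates only (-1.90). tbxta, the brachyury gene of notochord and tail bud, was called higher in cells with and1 and and2 with raised gates only (2.24), at 34.8 CPM, against 3.45 CPM in fibroblasts.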

How the data were processed

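Single cells of sorted, partially dissociated zebrafish trunks were sequenced with Smart-seq2 on 3 plates, each treated as 1 sample. The authors deposited raw counts per gene and cell: reads were trimmed (trim galore), aligned to GRCz11 (TopHat2 with Bowtie2) and counted with featureCounts of the Subread package, and cells below 50000 counts were removed, with limits also on genes and spike-ins. Totals are over genes alone, without the 92 spike-in and 2 reporter rows. The plates held 367 (vegfc plate 1), 377 (vegfc plate 2) and 365 (pdgfra plate) of the 1109 cells; gates at 20 counts gave 339 cells with and1 and and2 and 298 fibroblasts. Cells that met several gates were left out of the kinds, and no doublet caller was run. The Hox genes and all marker and gene lists were chosen with earlier results of these data known. With a plate as 1 sample, no test over plates was run, and intervals cover counting error only. Python 3.11.15 with pandas 2.3.3 and scipy 1.17.1 was used. A gene was called between kinds at an absolute log2 ratio of 1 or more on summed counts, pooled and within each plate with at least 10 cells of both kinds. The call was tried on simulated Poisson counts without further spread between cells or plates. That trial does not measure false calls among the real cells. Members were named if found in at least 5% of cells of a plate or kind, and in each comparison the called ones, up to 12; in the posterior fibroblasts also the 10 other genes furthest from 0 in each direction. RefSeq, on another assembly, gave symbols, gene order and the spans used for overlaps only. Alternatives varied the count threshold, thinning, pseudocount, filter, averaging, gates, boundary, depth and plates.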

Additional observations from a re-analysis of the deposited data

Results flagged for a closer look

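Some members differed between kinds by at least 2-fold in opposite directions on different plates; the difference between plates was not tested, and the groups on a plate are small (24, 11 and about 300 cells with and1 and and2, and about 120, about 170 and 15 fibroblasts, on vegfc plate 1, vegfc plate 2 and the pdgfra plate). The following are log2 ratios of cells with and1 and and2 over fibroblasts with gates at 20 counts. In hoxc12a, hoxc12b, hoxd12a and hoxd13a the vegfc plates lay above 0 and the pdgfra plate below. hoxc12a was at 1.91 on vegfc plate 1, 2.08 on vegfc plate 2 and -1.71 on the pdgfra plate. hoxc12b was at 1.67, 2.87 and -1.56 on the same plates, hoxd12a at 1.89, 1.1 and -1.06, and hoxd13a at 1.51, 2.83 and -1.99. hoxa11a (1.28 on vegfc plate 1, -1.44 on the pdgfra plate) and hoxc11b (2.11 and -1.15 on these) had the same order.

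In lower groups the order varied. hoxb8a was at 2.45 on the pdgfra plate and -2.42 on vegfc plate 1. hoxa9a was at 1.26 on the pdgfra plate and -2.18 on vegfc plate 2, and hoxc4a at 1.05 and -1.58 on the same plates. hoxb7a was at 1.21 on vegfc plate 1 and -2.78 on vegfc plate 2. In visceral mesenchyme over fibroblasts, hoxa11a was at 1.58 on vegfc plate 2 and -1.44 on vegfc plate 1.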

How the results depend on the processing

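No paired analysis was possible because the replicate numbers only name the cells within a plate and pair no samples across groups. Each of 45 named single-gene ratios was recomputed under the alternatives that could be run for it. Over all these recomputed values, 414 kept direction and call, 60 kept direction without the call, and 3 reversed. Raised gates alone lost the call of 15 and reversed the 3: HOXC13 (ENSDARG00000070353; 0.09) and HOXC13 (ENSDARG00000113877; 0.68) in fibroblasts with en1a or en1b, and hoxb4a between lines (-0.01). The causes were not tested except where fewer cells or genes enter by construction.

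Shares with the most posterior group moved with the count threshold and with the gates. At 1 count or more, groups 10 to 13 were reached in 99.8% of all cells, in 100% of neural cells, myogenic cells and fibroblasts, and group 13 in 98.5% of cells with and1 and and2 and 81.6% of visceral cells. At 5 counts the share for all cells was 76.6% and that of group 13 in cells with and1 and and2 42.2%, and after thinning 78.7% and 41.3%; raised gates gave 88.6% for the last. Overlapping gates gave 90.8% for neural and 80.2% for myogenic cells. Without 1 plate at a time, the share of all cells was 70.2 to 76.8%, that of group 13 in cells with and1 and and2 29.6 to 51.4% (highest without the pdgfra plate), that of neural cells 97.9 to 100% and that of myogenic cells 93.1 to 100%.

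Counts of called members moved as follows. For cells with and1 and and2, 1 was called higher with a pseudocount of 20 CPM, 0 with gates at 10 counts and 5 with raised gates (3 lower), and 1 to 8 higher and 0 to 2 lower without 1 plate (8 and 2 without the pdgfra plate). For neural cells, 0 were lower at 20 CPM, and without 1 plate 15 to 25 were higher and 3 to 6 lower (25 and 6 without vegfc plate 2). For visceral cells, gates at 10 counts gave 3 higher and 12 lower, 20 CPM gave 3 lower, and leaving out a plate gave 0 to 3 higher and 7 to 12 lower (12 without vegfc plate 1 and 12 without vegfc plate 2). For myogenic cells, 4 were lower at 1 CPM, 0 at 20 CPM, 0 with a mean of at least 20 CPM, 8 with gates at 10 counts and 2 with gates at 50, and 0 to 1 were higher and 1 to 15 lower without 1 plate (15 without vegfc plate 1). For en1a or en1b fibroblasts, 5 were lower with gates at 50 counts and 2 with raised gates, and 0 to 3 were higher and 8 to 15 lower without 1 plate (15 without vegfc plate 2).

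For posterior over anterior fibroblasts, of the tested genes that are no members, 11.4% were called higher at 1 CPM, 0.893% at 20 CPM, 10.6% with gates at 10 counts and 1.4% with raised gates, and 1.73% lower at 1 CPM, 0.166% at 20 CPM and 0.159% with raised gates. Without 1 plate the ranges were 6.37 to 20.8% higher and 1.07 to 8.61% lower; without vegfc plate 1 they were 20.3% and 7.48% and without vegfc plate 2 20.8% and 8.61%, since 1 plate then sets the within-plate condition. Between lines, members called higher numbered 11 at 1 CPM, 2 at 20 CPM, 4 with a mean of 20 CPM, 4 with per-cell means, 3 with gates at 50 counts and 0 with raised gates, and lower 1, 1 and 0 for the mean of 20 CPM, gates at 50 and raised gates; without a vegfc plate they were 8 to 13 and 3 to 8. That comparison without the pdgfra plate was not run, since the plate is 1 of its sides. Depth limits the rare members: a gene at 20 counts in a cell of 50045 counts is a higher level than in one of 782140.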
